A study of Mus musculus with 10 samples.

Results

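The introns described here are those for which the deposited leafcutter table gives a verdict of cryptic_unanchored or unknown_strand. By its name, cryptic_unanchored is a spliced-read gap anchored at no annotated splice site. The name unknown_strand says that the strand was not known, and does not itself say that no site matched. Leafcutter groups introns that share a splice site into clusters and counts the reads that span each intron. The 2 verdicts cover 2403 of the 32135 introns of the table. Of these, 263 cryptic_unanchored introns lie in 134 clusters together with other introns, and 2140 unknown_strand introns make up 523 clusters with no other kind of intron, so 657 of 10838 clusters hold at least 1. The verdict chose them, and no measured value was used.

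The libraries are total RNA of the cerebral cortex of mice at postnatal day 18, with ribosomal RNA removed and cDNA primed with random hexamers. The Usp7 cKO group (genotype Usp7 cKO; Trp53+/-) carries Usp7 fl/fl with NEX-cre, which deletes Usp7, a deubiquitinase, in glutamatergic neurons only. The Usp7 WT group has the genotype Usp7 WT; Trp53+/-, so mice of both groups keep 1 intact copy of Trp53, and the labels do not say whether Usp7 WT mice carry Cre. Each group has 5 libraries, described as matched pairs by litter and sex whose members the labels do not name. The tissue is a mixture of cells, so fewer cells of a type and less RNA per cell cannot be told apart. The comparison asks whether these introns take another share of their cluster, or another level, when Usp7 is lost from glutamatergic neurons.

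Most introns start with GT and end with AG, and the spliceosome recognises these letters together with the bases around them. Ubb encodes polyubiquitin, a head-to-tail chain of identical ubiquitin units that is cut into single ubiquitin molecules, and its coding sequence is therefore a tandem repeat. Where both ends of a gap lie in copies of the same repeat, the bases do not fix a single place for the gap.

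The sequences below show why the ends of many of these introns look alike. Each window holds 15 bases on the exon side and 15 on the intron side of an end, read 5′ to 3′ on the strand in the deposited cluster name, from GENCODE M21 transcripts (GRCm38). Capitals mark the first and last dinucleotides of the intron. Positions are those of the table, whose start and end are the exon bases that flank the gap. The first 8 lines are 4 introns whose ends lie in copies of a repeat, and the last 2 lines are an intron of Sept3, a septin, present in GENCODE M21. Sept3 and Gm47283 have the verdict cryptic_unanchored, and the other 3 genes unknown_strand.
Ubb, chr11:62552577-62552806, minus strand, 5′ end: caggcgaaggaccagGTgcagggttgactc
Ubb, chr11:62552577-62552806, minus strand, 3′ end: cagacggaggaccAGgtgcagggttgactc
Gm1821, chr14:46084401-46084630, 5′ end: accatcaccctggagGTggagcccagtgac
Gm1821, chr14:46084401-46084630, 3′ end: accatcaccctggAGgtggagcccagtgac
Plagl1, chr10:13130861-13130920, 5′ end: acagagtcatcaaagGTtaggagatatatg
Plagl1, chr10:13130861-13130920, 3′ end: acagagtcatcaaAGgttaggagatatatg
Gm47283, chrY:90785719-90793418, 5′ end: gacggactccacaagGTaggaagcctgcgc
Gm47283, chrY:90785719-90793418, 3′ end: gacggactccacaAGgtaggaagcctgcgc
Sept3, chr15:82290831-82293246, 5′ end: ggaggcctccctccgGTgagcgtggacaca
Sept3, chr15:82290831-82293246, 3′ end: caactccccctgcAGggagaaggcctcctg
The windows of Gm1821, Plagl1 and Gm47283 are the same at all 30 positions, and the Ubb windows at 28. The Sept3 windows share 10 of 30. In each repeat pair the bases after AG at the 3′ end are again those that follow the 5′ cut, GT included, while at Sept3 they are not.

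Depth, targeted gene and libraries were checked first. The intron counts used summed to between 3388310 and 4367711 per library, of which 136259 to 174141 fell on the 2403 introns. The column of Usp7 WT replicate 1 held even counts only, where 52.8 to 55.0% of counts were even elsewhere, and it was halved. Usp7 ranged from 48.3 to 61.9 TPM (length-scaled transcript units) in Usp7 WT libraries and from 31.6 to 40.9 TPM in Usp7 cKO libraries, without overlap. The library labelled Usp7 WT replicate 2, female in the labels, held Y-linked Ddx3y at 22.8 TPM and almost no Xist, and the library labelled Usp7 cKO replicate 1, male in the labels, held Xist at 116 TPM and almost no Ddx3y. By these transcripts, Xist was high in Usp7 WT replicates 1 and 5 and in all Usp7 cKO replicates but the fourth, so sex was not balanced between groups. The tests used labelled sex as covariate, and no fit used sex by transcripts. Results that change without this pair of libraries are given both ways. The defining markers of cortical glutamatergic neurons were present, and their summed level ranged from 1730 to 1902 TPM in Usp7 WT libraries and from 1260 to 1431 TPM in Usp7 cKO libraries. All 5 of these markers and all 4 microglial markers were lower (limma, adjusted over all genes), the latter summing to 130 to 150 against 90.6 to 105 TPM. Neurod6, one of the 5, is also named NEX, the gene of the NEX-cre line, and fell by log2 -1.10. The other glutamatergic markers fell by log2 -0.23 to -0.59. The part of the Cre line in the Neurod6 level was not tested. No marker of GABAergic neurons, astrocytes, oligodendrocytes, their precursors, endothelium, red blood cells, choroid plexus or other brain regions passed the test. Some varied widely between libraries, so not passing does not show equal levels. Ttr of choroid plexus ranged from 29.9 to 872 TPM in Usp7 WT and from 10.5 to 430 TPM in Usp7 cKO. The part of these cell types in the results below was not tested.

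The verdicts were set against GENCODE M21, the GRCm38 annotation used here. The annotation behind the authors' verdicts is not given in the sources used here. In M21, 2175 of the 2403 introns matched no splice site and 228 matched at least 1, of which 136 were exact M21 introns. Among the 29732 other introns 79.4% were exact M21 introns and 99.97% had at least 1 site. The intron of Gnas, the gene of the stimulatory G protein alpha subunit, at chr2:174330434-174334212 is an exact M21 intron within coding sequence. It had 6653, 7444, 7165, 7329 and 5442 reads in Usp7 WT replicates 1 to 5 and 5981, 6391, 6119, 7168 and 6375 in Usp7 cKO replicates 1 to 5. Its share of its cluster was 97.4 ± 0.458% (SD, n = 5) and 96.4 ± 0.183%, without overlap, yet the usage change was not called (log2 -0.02, edgeR diffSpliceDGE adjusted p = 1). Exact M21 introns of Sept3, of Iqsec1, an exchange factor of ARF6, and of the cell surface protein Cd47 were among the 12 cryptic_unanchored introns with most reads.

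Position and strand differed between the unknown_strand introns and the rest of the table. Of the other introns 99.97% have an M21 site, so this contrast follows at least in part from the verdict that chose the set. Of the 2140, 711 lay only antisense to M21 genes and 536 outside genes, while none of the 29732 other introns was antisense only and 2 lay outside genes. The strand here is that of the deposited cluster name, and no label says that the libraries keep strand, so antisense describes the reading of the ends and not a measured RNA strand. The cryptic_unanchored introns were mostly sense to a gene, 224 of 263. Among introns whose end letters could be read from transcripts, 309 of 322 unknown_strand and 40 of 41 cryptic_unanchored introns were GT-AG, beside 3750 of 3824 other introns.

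Sequence around the ends differed more than the end letters. For the 332 introns with enough known bases, the 100 bases around the 5′ end were compared with the 100 around the 3′ end. The median identity was 93% for 303 unknown_strand introns, of which 180 reached 90%, and 28% for 29 cryptic_unanchored introns. For 3357 other introns it was 26.25%, and none of them reached 80%. The repeat shared by both ends, the number of bases by which the gap could slide without a mismatch, had a median of 28 and a maximum of 122 bases in unknown_strand introns, and a median of 2 and a maximum of 11 in other introns. A shared repeat of at least 10 bases was present in 225 of the 332 introns and in 2 of the 3357 others. These comparable introns are the ones within M21 transcripts, 13.8% of the set, and the rest could not be read.

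**Figure D1:**
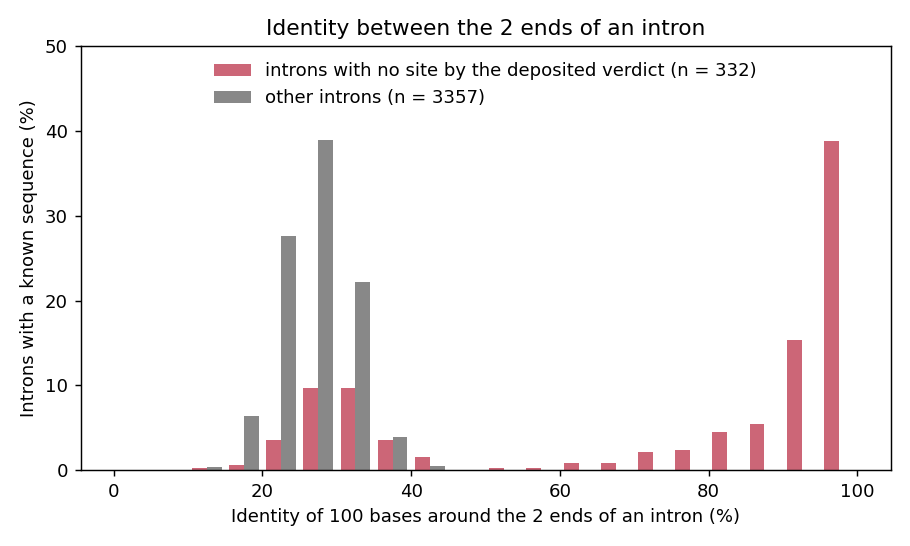
The x axis is the identity in percent between the 100 bases around each end of an intron, and the y axis the percent of introns with known sequence, for introns of the set, chosen by the deposited verdict (n = 332) and other introns (n = 3357). The other introns end at 46%, while 180 of the 332 lie at 90% or above.

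The polyubiquitin gene Ubb held many of the reads, with 12.7% of all reads of the set on 17 introns. The intron at Ubb on the minus strand, antisense to the gene, spans 228 bases, the length of the 76 codons of 1 ubiquitin unit, and had more reads than any other of the set, with 6224, 7710, 7216, 6851 and 5386 reads in Usp7 WT and 7014, 6454, 6886, 7387 and 7058 in Usp7 cKO. Its share was 69.4 ± 1.71% and 69.8 ± 1.99%, so the groups overlapped. On the plus strand, the Ubb intron at chr11:62552421-62552878 took 34.2 ± 1.34% and 33.9 ± 2.40%. Ubb itself stood at 878.4 ± 79.9 and 909.4 ± 31.9 TPM and did not pass the limma test (log2 0.05, adjusted p = 0.618).

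Gm1821, a gene of noncoding transcripts in M21 whose introns end in a repeat, had introns with 0 reads in some libraries. Its intron at chr14:46084173-46084630 had 0, 4938, 4654, 3836 and 2775 reads in Usp7 WT and 3903, 3277, 3764, 4733 and 4303 in Usp7 cKO. The 0 was in Usp7 WT replicate 1, which had no read in the whole cluster, while the other 9 libraries had at least 2775. The shorter intron at chr14:46084401-46084630, with the same 3′ end, had 0, 0, 1361, 0 and 1199 reads in Usp7 WT and 0, 1303, 0, 1546 and 1579 in Usp7 cKO. Each library thus had 0 reads or at least 1199, in both genotypes. Counts at genes with near-identical copies such as these are uncertain.

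Lengths of the introns repeated. The commonest length was 212 bases, found in 79 introns of the set and 10 others, followed by 424 (52 introns), 208 (43), 416 (34), 636 (33), 624 (29), 848 (18) and 228 (17). Multiples of 212 made up 8.45% of the set and 0.454% of the other introns, and multiples of 208 made up 6.12% and 0.481%. The introns fell into 441 loci when those within 10 kb were joined. Of 127 loci with at least 4 introns, 48 had a repeat unit, a length of which at least 80% of the introns were multiples, and these held 433 introns.

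**Figure D2:**
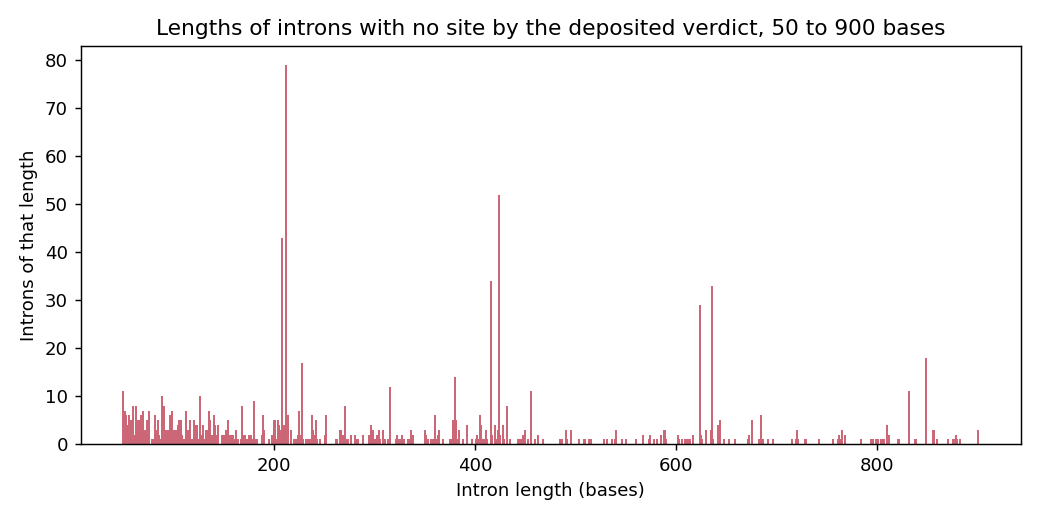
The x axis is the intron length in bases from 50 to 900, and the y axis the number of introns of the set with exactly that length. The tallest lines stand at 212, 424, 208, 416, 636 and 624 bases.

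The unit was 208 bases at 12 loci and 212 at 15. All 14 introns of a locus antisense to Nav3, a neuron navigator, were multiples of 208, as were all 18 of a locus within Fgf12, an intracellular fibroblast growth factor. Mouse LINE-1 retrotransposons carry tandem monomers of roughly this size at their 5′ ends. No repeat annotation was used, so whether these loci are such elements was not tested. The 208-base loci had 725 ± 168 reads per 1000000 intron reads in Usp7 WT and 690.5 ± 139 in Usp7 cKO (SD, n = 5), and the 212-base loci 429 ± 115 and 406 ± 89.3, overlapping in both cases. None of the 94 introns tested at 208-base loci or the 77 at 212-base loci was called by usage. Among all introns tested 0.117% were called, so having none called is near that share. Other units were shorter. At 2010300C02Rik all 24 introns were antisense and multiples of 63 bases, at Slc6a17, an amino acid transporter of synaptic vesicles, 77 of 95 were multiples of 14, and at the imprinted zinc finger gene Plagl1 8 of 9 were multiples of 58.

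**Figure D3:**
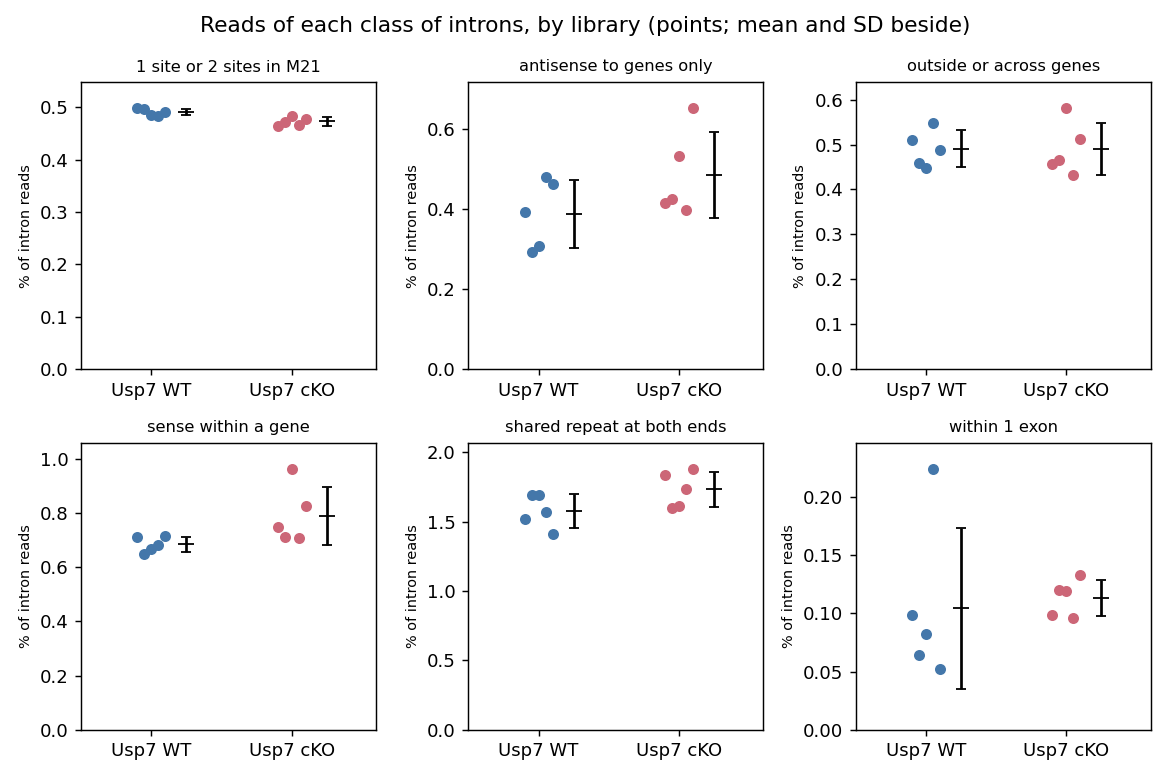
Each panel plots 1 class of introns, with the percent of all intron reads on the y axis, 1 point per library (5 Usp7 WT, 5 Usp7 cKO) and the mean and SD beside the points. The class with M21 sites spans 0.483 to 0.498% for Usp7 WT and 0.465 to 0.484% for Usp7 cKO, a narrower range than the antisense class, which spans 0.293 to 0.480% and 0.397 to 0.652%.

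As a set the introns took 3.73, 3.65, 3.68, 3.99 and 3.62% of intron reads in Usp7 WT and 4.02, 3.79, 4.30, 3.83 and 4.48% in Usp7 cKO. The mean was 3.73 ± 0.146% and 4.09 ± 0.297% (SD, n = 5), and Usp7 WT replicate 4 lay within the Usp7 cKO range. The difference of 0.350 percentage points came with the unknown_strand introns, at 3.34 ± 0.146% and 3.70 ± 0.270%, since cryptic_unanchored introns took 0.394 ± 0.0185% and 0.386 ± 0.0440%. The set and its classes include the introns at the Y and X chromosome ends, which rose. On the depth scale used for them below, their means were 1067 and 2094 reads at the Y end. At the X end they were 589 and 1131. Whether the rest of the set or of a class differed without these introns was not tested. Of the classes drawn in the panels of class shares, introns whose ends share a repeat held the most, 1.58 ± 0.120% and 1.73 ± 0.126%. Sense introns within a gene took 0.685 ± 0.0290% and 0.792 ± 0.107%, and introns outside or across genes 0.491 ± 0.0409% and 0.490 ± 0.0586%. In mixed clusters, the cryptic_unanchored introns took 17.4 ± 0.981% of cluster reads in Usp7 WT and 16.2 ± 0.886% in Usp7 cKO.

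Many of the introns were present in some libraries and absent in others of the same genotype. Of the introns with a mean of at least 20 reads, 376 of 892 unknown_strand and 29 of 126 cryptic_unanchored introns had at least 1 library at or below 1% of the highest library, compared with 97 of 17955 other introns (0.540%). None of the 111 introns of that level with an M21 site did so. The share was 113 of 215 in the antisense class, 144 of 298 in the sense class, 86 of 230 outside or across genes, and 51 of 131 where the ends share a repeat. Of the 405 in all, 235 were near zero in libraries of both groups, 94 in Usp7 WT libraries only and 76 in Usp7 cKO libraries only. Their median coefficient of variation over the 10 libraries was 78.4%, compared with 45.9% for the total of the cluster they lie in, and the cluster total was the less variable for 354 of 405. The introns were picked for a near-zero library in these same counts and the totals were not. The contrast thus follows in part from that choice. Usp7 WT replicates 2 and 5 each had 135 of them near zero, and Usp7 cKO replicate 3 had 82, the fewest.

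Large differences in share came from introns near zero in some libraries. At chromosome 12, the introns chr12:69129976-69159352 and chr12:69129976-69159349 join a site near Gm31447 to Rn7s1, which encodes the RNA of the signal recognition particle, and their ends lie 3 bases apart. The first had 346, 402, 267, 387 and 192 reads in Usp7 WT and 1, 0, 188, 366 and 0 in Usp7 cKO. The second had 1, 248, 0, 224 and 0 in Usp7 WT and 146, 153, 0, 227 and 135 in Usp7 cKO. Shares of the first were 85.0 ± 20.4% and 32.5 ± 46.2%, but groups overlapped and usage was not called (log2 -0.83, edgeR diffSpliceDGE adjusted p = 1). In Snhg14, the long noncoding host of small nucleolar RNAs in the imprinted Prader-Willi region, the cryptic_unanchored intron chr7:59757010-59759376 had 510, 4, 502, 394 and 679 reads in Usp7 WT and 2, 2, 530, 348 and 484 in Usp7 cKO. Its neighbour chr7:59797398-59799794 had 652, 674, 367, 685 and 659 reads and 154, 179, 697, 591 and 582, again with overlap. Neither was called, and Snhg14 itself stood at 63.2 ± 4.09 and 64.2 ± 7.09 TPM.

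Introns with the longest shared repeats showed the same pattern at low counts. The Cers6 intron of 52 bases at chr2:69113020-69113073, in an untranslated region of this ceramide synthase gene, had 2, 2, 106, 91 and 0 reads in Usp7 WT and 134, 0, 148, 134 and 0 in Usp7 cKO. An intron of the protocadherin gene Pcdha1 at chr18:36931889-36947800, whose ends share 116 bases, had 20, 41, 0, 0 and 0 reads and 33, 0, 21, 39 and 0. In both, each genotype held libraries with 0 reads and libraries with 20 or more.

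Intron usage, the log2 change of an intron beyond that of its cluster, differed for few of them. Of 2319 tested, 4 were called (edgeR diffSpliceDGE, adjusted p below 0.05), or 0.172%, where 0.117% of all introns tested were called. At an unadjusted p below 0.05 there were 71 (3.06%), beside 3.52% of all introns tested. The DESeq2 test with cluster totals as offset called 26 of 2262 (1.15%) against a background of 1.24%. Shares did not overlap between groups for 22 introns higher in Usp7 cKO (0.949%) and 28 lower (1.21%), where the background was 1.64% in either direction. In none of these counts did the introns stand far above the background.

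**Figure D4:**
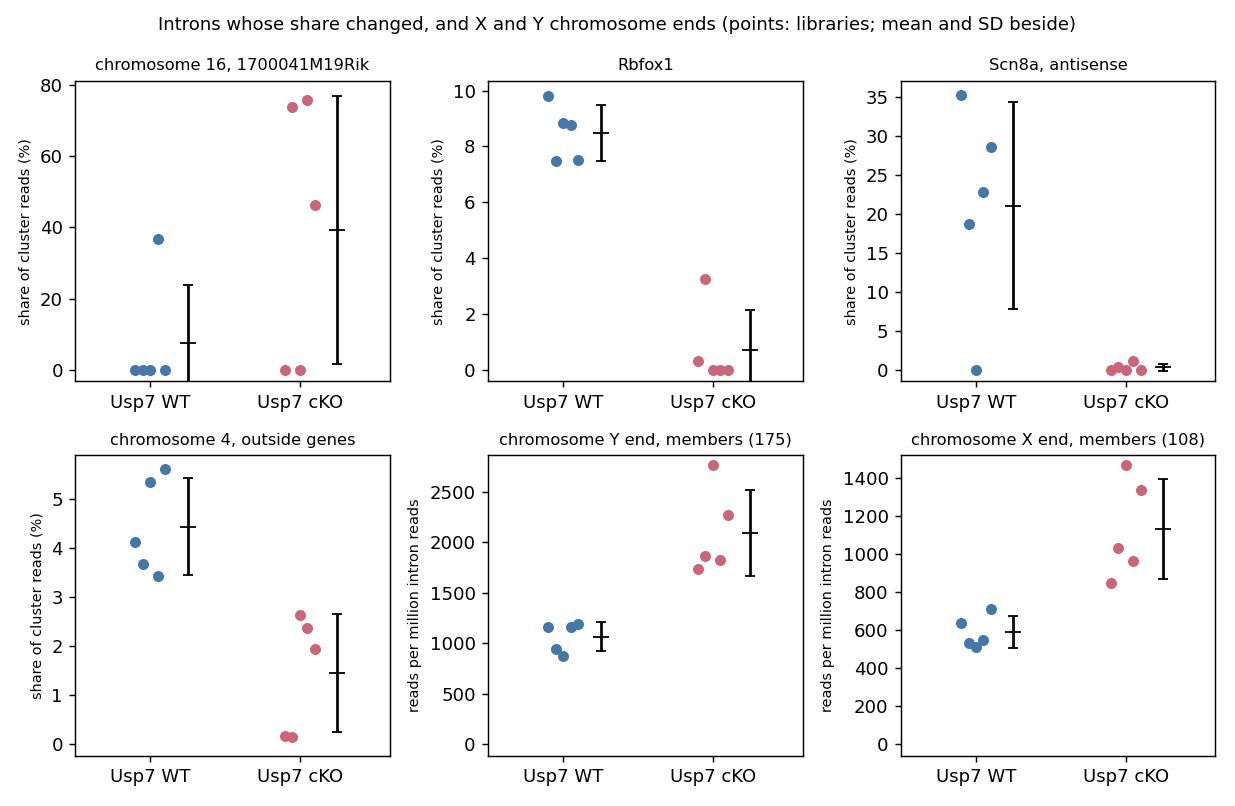
The first 4 panels plot the share of cluster reads in percent for the 4 introns called by usage, and the last 2 the reads per 1000000 intron reads of the introns at the Y and X chromosome ends, with 1 point per library and the mean and SD beside. The Rbfox1 intron and the intron on chromosome 4 have no overlap between groups, while the other called introns do.

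The Rbfox1 intron was lower in every Usp7 cKO library. Rbfox1 encodes a splicing regulator of neurons, and the intron chr16:6075967-6173605 runs from a site in no M21 exon to an M21 acceptor at an untranslated exon. It had 38, 30, 37, 34 and 36 reads in Usp7 WT and 1, 11, 0, 0 and 0 in Usp7 cKO, or 8.48 ± 1.001% and 0.707 ± 1.42% of its cluster (SD, n = 5). The usage change was log2 -3.88 (edgeR diffSpliceDGE adjusted p = 0.00288), and it was called when any single library was left out. Without both libraries of discordant sex the adjusted p of the same test was 0.143, and DESeq2 and limma did not call it. Rbfox1 itself fell from 278 ± 20.8 to 220.3 ± 7.79 TPM (log2 -0.33, limma adjusted p = 0.00334). The intron with most reads of the cluster, chr16:5885864-6173605, with 302 to 416 Usp7 WT and 287 to 439 Usp7 cKO reads per library, took 80.3 and 86.9% of the cluster.

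The call on chromosome 16 at chr16:76800692-76877397 rested on libraries of either kind. This intron, partly antisense to 1700041M19Rik, had 0, 0, 1, 2916 and 2 reads in Usp7 WT and 0, 2537, 1, 2704 and 4011 in Usp7 cKO. The groups overlapped, since Usp7 WT replicate 4 was high and Usp7 cKO replicates 1 and 3 were at 0 and 1. Its share was 7.38 ± 16.5% and 39.2 ± 37.7% (log2 4.11, edgeR diffSpliceDGE adjusted p = 0.000401). A neighbouring intron with the same start had 1656, 6, 1582, 1377 and 2253 reads and 1566, 5, 1698, 0 and 1. The total of the cluster did not pass the test (edgeR quasi-likelihood adjusted p = 0.902). The call was lost without Usp7 WT replicate 1, 2 or 5, without the sex covariate, and under DESeq2 and limma, with adjusted p up to 0.652.

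**Figure D5:**
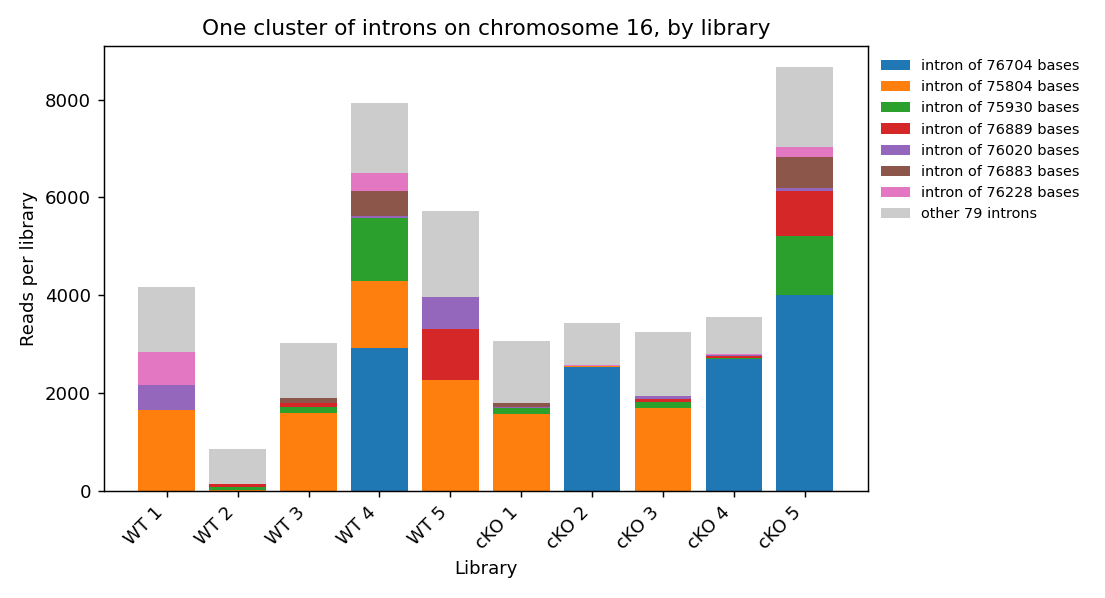
Stacked bars give the reads of the 7 introns with most reads in the cluster of chr16:76800692-76877397, and of its other introns in grey, on the y axis for each of the 10 libraries on the x axis. Introns of different length fill the bar in different libraries of the same genotype.

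The other called introns lay antisense to Scn8a, a sodium channel gene, and outside genes on chromosome 4. The Scn8a intron chr15:100965374-100965463 had 124, 49, 0, 36 and 42 reads in Usp7 WT and 0, 1, 0, 2 and 0 in Usp7 cKO (21.1 ± 13.3% and 0.288 ± 0.461% of the cluster). Usp7 WT replicate 3, at 0, overlapped with Usp7 cKO. The change was log2 -6.32 (edgeR diffSpliceDGE adjusted p = 0.0129), and the call was lost without Usp7 WT replicate 1 or 4, without Usp7 cKO replicate 2, 3 or 5, without both libraries of discordant sex and under limma, with an adjusted p up to 0.267. Most reads of that cluster fell on an intron of equal length at a lower coordinate, with a share of 53.4 ± 11.6% and 58.9 ± 8.39%.

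The chromosome 4 intron chr4:42651064-42651276 had 116, 104, 146, 96 and 111 reads in Usp7 WT and 3, 3, 57, 53 and 37 in Usp7 cKO, without overlap. Its share fell from 4.44 ± 0.989 to 1.45 ± 1.21% (log2 -1.56, edgeR diffSpliceDGE adjusted p = 0.0150). The call was lost without Usp7 WT replicate 1, 3 or 5, without Usp7 cKO replicate 1 or 2, without both libraries of discordant sex, and under DESeq2 and limma, with an adjusted p up to 0.546. The cluster holds 4 more introns of the same 211 bases. That of Gm13306, 497159 bases before, had 163, 144, 158, 126 and 156 reads and 41, 89, 82, 68 and 69, also without overlap, but was not called by usage (log2 -0.75, edgeR diffSpliceDGE adjusted p = 1). Those of Gm20878, Gm21953 and Gm21586 had log2 usage changes of 0.10, 0.13 and 0.03, all with adjusted p = 1 by the same test. Gm13306 fell from 15.6 ± 2.10 to 8.65 ± 1.45 TPM (log2 -0.82, limma adjusted p = 0.00130). Counts among such copies are uncertain.

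By cluster, usage was called for 4 of 645 clusters that hold such an intron (0.62%; Simes test on edgeR diffSpliceDGE), beside 0.22% of all clusters. The Rbfox1, chromosome 16 and Scn8a clusters were among them. The fourth, at the olfactomedin gene Olfm2, was called through another kind of intron, chr9:20675723-20746171, which is not of this set.

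Cluster totals moved more often than shares. Of 657 clusters, 63 were called by total (edgeR quasi-likelihood test), 33 higher in Usp7 cKO (5.02%) and 30 lower (4.57%), where 4.55 and 4.96% of all clusters were higher and lower. Without both libraries of discordant sex 33 were called, 19 higher and 14 lower, and without Usp7 cKO replicate 5 there were 39. The lower clusters numbered 16 without that library and 17 without Usp7 WT replicate 1, 3 or 4. Among clusters of unknown_strand introns only, 13 of 58 with an M21 site were lower and 0 higher, and 8 of 465 without a site were lower and 21 higher. The difference between these kinds of cluster was not tested. The count of 13 was 3 without both libraries of discordant sex, 12 without Usp7 cKO replicate 3, 11 without Usp7 WT replicate 2, and 4 to 8 without any other single library. DESeq2 gave 14 lower and 2 higher.

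The 13 lower clusters with M21 sites lay at Syne1 (3), Rbfox1, Cdh12 and Aldh1a1 (2 each), Hivep2, Amer2, Fat3 and C230057M02Rik (1 each). At Syne1, which encodes a giant nuclear envelope spectrin-repeat protein, 3 clusters were lower by log2 -0.54, -0.43 and -0.31. The second, chr10:5162465-5168687, had 642.6 ± 41.3 reads in Usp7 WT and 442.2 ± 39.8 in Usp7 cKO (edgeR quasi-likelihood adjusted p = 0.00191), although Syne1 in TPM was 102.7 ± 9.93 and 95.3 ± 9.40 and was not called (log2 -0.11, limma adjusted p = 0.419). At Rbfox1 2 clusters were lower (log2 -0.25 and -0.30), and at Hivep2, a zinc finger transcription factor, 1 (log2 -0.36). Clusters at Cdh12, a cadherin, and Aldh1a1, a retinaldehyde dehydrogenase, were lower as well (log2 -0.67 and -0.58, and -1.01 and -0.87). Those 4 genes also fell in TPM, by log2 -0.33, -0.42, -0.49 and -0.88 (limma, Benjamini-Hochberg adjusted).

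Clusters of introns at the ends of the X and Y chromosomes rose. The region holds the pseudoautosomal boundary, where sequence is shared between X and Y, with Gm21887 on X, Gm47283 on Y, and Mid1, a ubiquitin ligase gene that spans the boundary in mice. Of 24 such clusters 11 were higher and 0 lower (45.8%), and under the other scalings, filters, tools and left-out libraries 9 to 15 were higher and 0 lower. Copies of a sequence on X and on Y count as separate clusters here, so the 24 are not independent. Of the other 633 clusters 22 were higher (3.48%) and 30 lower (4.74%). The 175 introns of the set at the Y end had 1160, 940.2, 874.9, 1165 and 1193 reads per 1000000 intron reads in Usp7 WT and 1734, 1868, 2768, 1828 and 2272 in Usp7 cKO. The 108 at the X end had 639.8, 533.6, 512.4, 547.2 and 710.4 reads per 1000000 and 847.0, 1035, 1471, 963.6 and 1337. Every Usp7 cKO library was above every Usp7 WT library at both ends, which are not separate observations where X and Y share sequence. Xist was high in Usp7 WT replicates 1 and 5 and in all Usp7 cKO replicates but the fourth. The part of sex in this difference was not tested.

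The Y-end introns had reads in libraries without Y-linked transcripts, so copies on X and Y were not kept apart by the counting. Usp7 WT replicates 1 and 5, where Ddx3y was listed at 0, had 4846 and 4509 reads on them. The cluster chrY:90786464-90789005, with 52 unknown_strand introns sense to Gm47283, rose from 1515 ± 202 to 3434 ± 749 reads (log2 1.29, edgeR quasi-likelihood adjusted p = 1.26e-05). The cluster chrX:170011593-170014383 rose from 434.6 ± 96.2 to 1136 ± 228 reads (log2 1.49, adjusted p = 1.50e-05 by the same test). The intron chrY:90784871-90784953 and the intron chrX:170009955-170010037 both span 81 bases and had identical counts in all libraries, 241, 0, 308, 1 and 275 in Usp7 WT and 0, 536, 608, 0 and 684 in Usp7 cKO. Such identical counts joined 50 introns of the set with another intron, in 25 groups of which 4 spanned X and Y, while 7 of the 29732 other introns had a twin. In TPM, Gm47283 rose from 15.9 ± 3.46 to 29.1 ± 9.41 (log2 0.82, limma adjusted p = 0.0229), and Erdr1, a gene of this region, was 16.6 ± 2.35 and 27.7 ± 10.6 without passing the test (log2 0.66, adjusted p = 0.0806).

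Higher clusters elsewhere included the following. The cluster at Gm10800, chr2:98662972-98667138, had 77, 87, 101, 81 and 121 reads in Usp7 WT and 311, 280, 333, 184 and 374 in Usp7 cKO, without overlap (log2 1.78, edgeR quasi-likelihood adjusted p = 6.15e-05). In TPM, Gm10800 and its neighbour Gm10801 rose by log2 1.37 and 1.48 (limma, Benjamini-Hochberg adjusted). A cluster between Gm10060 and Gm21769 (log2 1.70), the antisense cluster at Plagl1 (log2 0.94) and 4 clusters at Snhg14 (log2 0.64, 0.89, 1.26 and 1.92) were higher too. Those at Snhg14 were small, with means of 24.4 to 123.6 reads in Usp7 WT. Snhg14 clusters with more reads, chr7:59724140-59892461 (12648 and 11135) and chr7:59353044-59597176 (5002 and 4690), were not called (edgeR quasi-likelihood adjusted p = 0.648 and 0.907). A cluster of 11 introns without M21 site within Rbfox1, chr16:7026789-7027519, was higher (log2 0.75), against the direction of the gene. Lower were an antisense cluster at Gm14443 (log2 -1.20), one at 2010300C02Rik (log2 -0.48), and one joining Trbj2-3 to Trbc2, the joining and constant segments of the T cell receptor beta locus (log2 -1.07). Among mixed clusters, those at Nbl1, a secreted antagonist of bone morphogenetic proteins, and Rian, an imprinted noncoding RNA, were higher (log2 1.56 and 0.85) and that at Rin1, a regulator of Ras and Rab5, was lower (log2 -1.54). These 3 genes moved the same way in TPM (log2 1.25, 0.91 and -1.34).

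The genes that host the introns on their own strand were tested in the TPM table. Of 229 tested, 19 were higher (8.30%) and 36 lower (15.7%; limma, Benjamini-Hochberg adjusted), where 9.22 and 4.67% of all genes were higher and lower. The median log2 change was -0.02 for host genes and 0.06 for all genes tested. After rescaling TPM by median-of-ratios size factors, 21 were higher (9.17%) and 67 lower (29.3%), where 9.8 and 10.5% of all genes were, and the median of all genes was 0.01. Without both libraries of discordant sex 11 were higher and 30 lower. Among hosts of introns with an M21 site, 8 of 105 were higher and 19 lower.

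Genes that recognise splice sites or limit cryptic splicing were set beside all genes tested, of which 9.22% were higher and 4.67% lower. The counts by list below were not tested against these shares. Of 21 tested genes of splice site recognition (the U1 and U2 particles and their cofactors), 1 was higher and 0 lower by limma, adjusted over all genes: Sf3b3, of the branch point complex, rose from 24.8 ± 1.14 to 29.1 ± 1.08 TPM (log2 0.23). None of 12 minor spliceosome genes and none of 9 genes of tRNA-type and unconventional splicing passed this test. Of 21 repressors of cryptic exons, Ptbp1 and Hnrnpa1 were higher (log2 0.35 and 0.25) and Hnrnpc was lower (log2 -0.27). Of 16 genes of nonsense-mediated decay, which degrades RNAs with early stop codons, Rbm8a and Rnps1 of the exon junction complex were higher (log2 0.29 and 0.36) and 0 were lower. The list medians were 0.02, 0.01, 0.09, 0.08 and 0.04 in that order, beside 0.06 for all genes.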

How the data were processed

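The introns and gene lists were chosen with earlier results of these data known. The deposited intron table holds raw counts of reads spanning each intron, with the leafcutter cluster and verdict. Gene levels are the authors' TPM per gene. STAR 2.7.9a, SAMtools 1.10, featureCounts 2.0.3 and GRCm38 appear in the submitters' processing notes, with no step given. For the counting strand, the annotation behind the verdicts and the clustering settings, the sources used here give nothing. Library identifiers run in genotype order, so an effect of library order and genotype cannot be told apart. Exon bin counts were not used here.

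Counts of Usp7 WT replicate 1 were halved. Introns with a mean count of at least 5, in clusters with at least 2 such introns, were tested with edgeR 4.0.16 in R 4.3.3 (TMM scaling, glmQLFit, diffSpliceDGE). Labelled sex was the covariate, although Xist and Ddx3y go against the label in the pair of libraries named above. Adjustment was by Benjamini-Hochberg over all introns at 0.05, and 84 introns of the set were not tested. Cluster totals were tested with glmQLFTest. Gene levels (mean TPM of 0.5 or more) were tested with limma 3.58.1 (trend, robust) on log2(TPM + 0.5), a scale that understates changes of low genes, with 287 repeated gene lines removed. All tests were two-sided. The scripts were tested on simulated data with a fixed spread, so their behaviour on introns near zero in some libraries was not tested. The labels describe 5 matched pairs, so libraries were taken as separate mice.

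Annotation and bases came from GENCODE M21 transcripts of GRCm38, without a genome sequence, so ends outside transcripts were not read. At least 80 of the 100 positions compared had to be known at both ends. Introns named are the 10 unknown_strand and 12 cryptic_unanchored introns with the highest mean count, those called by usage, 6 with the largest share difference among clusters of at least 20 reads in every library, 6 with the longest shared repeat, and their host genes. A further part of the rule, introns with reads in 1 library only, found none. A few introns under this rule are not reported here. Clusters, loci and equal-count introns outside this rule were chosen after their values were seen. Alternatives were DESeq2 1.42.0, other scalings, filters and pseudocounts, no sex covariate, the column not halved, and libraries left out. Tables were made with Python 3.11.15, pandas 2.3.3 and numpy 2.4.6.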

Additional observations from a re-analysis of the deposited data

Results flagged for a closer look

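In 2 of 40 groups of 5 libraries examined, 1 library stood apart from the other 4 by Dixon's criterion (gap over range above 0.71), which chance does for about 1 in 20 groups. The 40 groups did not take in every intron under the naming rule, so 2 of 40 is not a rate for the set. The Rbfox1 intron chr16:6075967-6173605 took 3.24% of its cluster in Usp7 cKO replicate 2 and 0 to 0.302% in the other Usp7 cKO libraries. The intron chr16:76800692-76877397 took 36.8% of its cluster in Usp7 WT replicate 4 and 0 to 0.0349% in the other Usp7 WT libraries.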

How the results depend on the processing

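No called change reversed direction. The count of introns called by usage was 4, and it was 26 with DESeq2 and cluster offsets, 1 with limma on log2 ratios, 1 without both libraries of discordant sex, and 1 to 6 when 1 library was left out. The count of clusters called by usage was 4, and it was 1 at a minimum mean count of 10, 1 without both libraries of discordant sex, and 1 to 5 when 1 library was left out. The count of clusters called by total was 63, and it was 33 without both libraries of discordant sex and 39 to 58 when 1 library was left out. Host genes called by level numbered 55, or 88 with rescaled TPM, and 41 to 55 when 1 library was left out. Differences given without a test differed in sign by subset. In percent of intron reads the difference was 0.350, or -0.00851 for cryptic_unanchored introns alone. In percent of cluster reads it was 0.704, or -1.15 for cryptic_unanchored introns and -1.64 for introns with known GT-AG, GC-AG or AT-AC ends. Since unknown_strand introns made up 100% of their cluster reads in every library, their own share could not change. The 0.704 of the whole set thus also depends on how reads divide between their clusters and the mixed ones. Beyond this, the cause of the differences in sign was not tested. The usage changes of the 4 called introns kept direction in 76 of 76 alternatives and were no longer called in 24. Introns with a near-zero library numbered 405, or 387 to 404 when 1 library was left out, which was chosen after seeing the data. No paired analysis was possible because the labels name no pairs and carry no replicate numbers. The median intron of the set had a mean of 16.6 reads per library, so its share carries a wide counting error.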
